A study of Mus musculus with 3 samples.

Results

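Transcription factors of the epidermal lineage and its differentiation were examined in integrin alpha6-positive, Sca1-negative cells of mouse back skin. The members were a list of 10 genes, Trp63, Klf4, Klf5, Grhl1, Grhl3, Ovol1, Zfp750, Cebpa, Cebpb and Gata3, found by symbol among 44548 genes. No measured value entered the rule, but the list was chosen with earlier results of these data known. All 10 were found, each as a single entry annotated as protein-coding in GENCODE M21. The libraries were 3 replicates of 1 group, polyadenylated RNA of cells sorted from the back skin of wild-type mice. The animals were 56 days old, at the second telogen, the resting phase of the hair cycle. Neither a transgene nor a treatment is named in the labels, and the protocol names an antibody against integrin alpha6 alone. The protocol speaks of duplicates while the group holds 3 samples, so SDs and the p-values computed here rest on samples whose spread may be partly technical. The authors' adjusted p-values come from a comparison with other libraries, which were not used here.

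Epidermis is renewed from basal cells that stop dividing, move upward and switch from basal keratins to products of the spinous and granular layers. Trp63 encodes p63, the factor on which the stratified epithelial lineage depends. Zfp750 is a known p63 target, and together with Klf4, the Grhl factors, Ovol1 and the C/EBP factors it is known for acting in basal cells that leave the cycle and in the layers above. Gata3 is known in skin for barrier formation and for the inner root sheath of the hair follicle. Integrin alpha6 is an adhesion receptor of cells that sit on the basement membrane, and Sca1 is a surface antigen known from much of the epidermis between the follicles. Since these were bulk samples, more cells of a kind and more RNA per cell cannot be told apart.

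Depth was 29283936, 35264901 and 39198620 counts in replicates 1, 2 and 3. All 10 hair follicle stem cell markers were detected, at a median of 413 ± 36.8 TPM (a count per unit of gene length, scaled to the same total in each library; SD, n = 3). Itga6, which encodes the sorting antigen, had 112 ± 9.12 TPM, and Ly6a, which encodes Sca1, had 7.91 ± 4.31 TPM. Among the 10 lymphoid markers none reached a mean of 1 TPM, and their summed level was 0.413 to 1.14 TPM per library. The defining T cell gene Cd3d had 0 counts in every library, as did the myeloid gene Lyz2. The 10 myeloid markers summed to 34.1 to 38.2 TPM, mostly Cd68 and Cd74, and the 6 adipocyte markers to 0.376 to 0.684 TPM. The 8 fibroblast markers summed to 23.5, 54.5 and 51.5 TPM, the 6 melanocyte markers to 60.0, 41.7 and 38.7 TPM and the 5 endothelial markers to 0.239, 0.240 and 0.373 TPM. In replicate 1, more genes lay apart than in the others: 10.6% of 13663 genes with a mean of at least 1 TPM were over 2-fold above both other libraries, against 0.527% in replicate 2 and 1.29% in replicate 3. The shares over 2-fold below both others were 2.26%, 1.16% and 1.59%. Folds here are on the log2(TPM + 1) scale.

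The stretches before the RefSeq starts of 4 members are shown, because the table's H3K27me3 value and fold change single them out. Gata3 and Grhl3 carried a value for H3K27me3, a histone mark laid down by Polycomb complexes and associated with repression. Cebpb and Cebpa had the highest fold changes in the authors' comparison described further on. Each sequence is the 250 bases before the RefSeq start, 5′ to 3′ on the gene's strand, build GRCm38.p6. They lie at chr2:9878601-9878850 (Gata3, minus strand), chr4:135573633-135573882 (Grhl3, minus), chr2:167688665-167688914 (Cebpb, plus) and chr7:35119043-35119292 (Cebpa, plus). The Gata3 window precedes the RefSeq start but lies inside the gene as GENCODE draws it, in introns of 3 longer transcripts, and overlaps an exon of the antisense gene Gm13256. The Cebpb window lies in an intron of Tmem189 and the Cebpa window in an intron of the antisense gene Gm45091. Capitals mark CCACCC, a core of the sequence bound by Krüppel-like factors, CCAAT, or TATAAA, on either strand.
Gata3: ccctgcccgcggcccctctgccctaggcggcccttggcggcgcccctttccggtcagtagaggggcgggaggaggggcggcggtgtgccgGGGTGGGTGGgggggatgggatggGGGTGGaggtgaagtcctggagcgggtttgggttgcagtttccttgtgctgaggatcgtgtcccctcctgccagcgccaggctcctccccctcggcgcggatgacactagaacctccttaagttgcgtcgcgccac
Grhl3: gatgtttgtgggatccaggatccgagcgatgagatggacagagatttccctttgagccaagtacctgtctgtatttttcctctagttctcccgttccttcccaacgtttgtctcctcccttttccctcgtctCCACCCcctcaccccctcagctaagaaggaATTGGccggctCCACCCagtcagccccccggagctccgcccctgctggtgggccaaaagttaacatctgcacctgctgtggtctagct
Cebpb: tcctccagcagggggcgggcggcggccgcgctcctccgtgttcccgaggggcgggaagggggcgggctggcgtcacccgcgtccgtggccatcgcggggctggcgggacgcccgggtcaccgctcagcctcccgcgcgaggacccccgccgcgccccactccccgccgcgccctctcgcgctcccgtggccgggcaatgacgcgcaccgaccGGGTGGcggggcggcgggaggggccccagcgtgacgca
Cebpa: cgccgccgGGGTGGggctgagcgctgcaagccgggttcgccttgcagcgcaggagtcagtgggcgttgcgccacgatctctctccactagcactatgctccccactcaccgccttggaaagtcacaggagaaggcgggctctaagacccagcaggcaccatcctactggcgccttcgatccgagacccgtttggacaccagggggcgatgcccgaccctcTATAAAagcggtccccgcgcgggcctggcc

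The set of RefSeq starts used here held a start for 6 of the 10 members (Gata3, Cebpb, Klf4, Grhl3, Cebpa and Grhl1). In all, 32851 windows served as background. CCACCC on either strand occurred 3 times upstream of Gata3, with the first and second copies overlapping, 2 times upstream of Grhl3, and once each upstream of Cebpb and Cebpa. None was in the Klf4 window or in the Grhl1 window at chr12:24572037-24572286, and the Grhl1 window at chr12:24580469-24580718 held 1. CCACCC was found in 28.1% of all windows. The GC content was 70% for the Gata3 window, 56% for Grhl3, 81.6% for Cebpb and 66.4% for Cebpa, against a median of 52.4%. TATAAA lay at position 221 of the Cebpa window, 30 bases before the start, and was found in 12.4% of all windows. CCAAT was read once upstream of Grhl3, on the opposite strand, and occurred in 33.8% of all windows. Neither AACNGGTT, the core known for Grhl factors (1.79% of windows), nor TTGCNNAA, known for C/EBP factors (9.56%), nor AGATAA, known for GATA factors (9.99%), was in any of the 4 windows on either strand. A match is a string of letters and not a site shown to be bound. CG dinucleotides numbered 41 upstream of Cebpb, 22 upstream of Cebpa, 19 upstream of Gata3 and 8 upstream of Grhl3, against a median of 6 over all windows.

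The 10 factors spanned a wide range of levels. All 10 had a mean of at least 1 TPM, as did 30.7% of all genes. Their median was 40.1 ± 4.40 TPM (SD over libraries, n = 3), at the percentile of 76.5 ± 2.36 among genes with a mean of at least 1 TPM. The lowest count behind any value was 304, for Grhl3 in replicate 1, where counting error alone is 5.74%. The coefficients of variation over replicates, from 5.15% for Trp63 to 50.3% for Klf4, were larger than the counting error of every member. In an edgeR fit of the 3 libraries as 1 group, the biological coefficient of variation of the members had a median of 0.280, beside 0.261 over genes with a mean of at least 1 TPM.

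**Figure D1:**
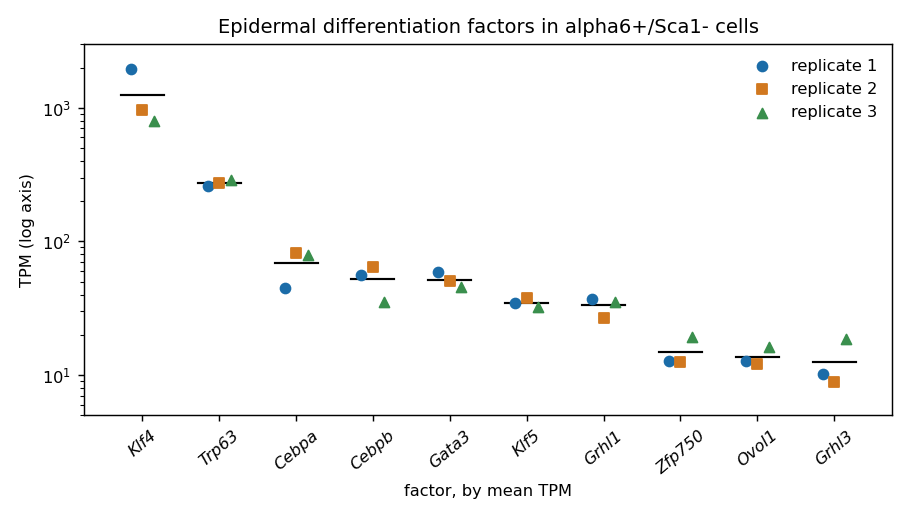
TPM (log axis) of the 10 factors in each of the 3 replicates, ordered by mean; points are libraries and bars are means. Klf4 and Trp63 stand apart from the other 8 factors in every library, and Zfp750, Ovol1 and Grhl3 are the lowest by mean, each highest in replicate 3.

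Trp63 (ENSMUSG00000022510, GRCm38 chromosome 16, 25683763 to 25892102, plus strand) is the lineage factor of the group. It had 259, 273 and 287 TPM in replicates 1, 2 and 3, a mean of 273 ± 14.1 (SD, n = 3). The libraries lay within 1.11-fold of each other, the narrowest range of the 10. GENCODE lists 8 transcripts of Trp63, and counts per gene do not separate the forms with and without the transactivation domain. Of its paralogs, Trp53 had 67.7 ± 3.97 TPM and Trp73 had 47.7 ± 12.3 TPM. Trp63 was the highest of the 3 in every library.

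Klf4 (chromosome 4, 55527143 to 55532466, minus strand), a Krüppel-like zinc finger factor required for the skin barrier, was the highest of the 10. It had 1946, 963 and 797 TPM in replicates 1, 2 and 3, a mean of 1235 ± 621 (SD, n = 3), at the percentile of 99.2 among genes with a mean of at least 1 TPM. Replicate 1 was over 2-fold above both others. Klf4 was the only member to lie apart in this way, where 16.4% of all such genes did so in some library. With library factors from TMM normalization (trimmed mean of M-values) no member lay apart, and with upper quartile factors Grhl3 and Cebpa did and Klf4 did not. Without replicate 1 the mean of Klf4 was 880 TPM, still above that of every other member.

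Klf5 (chromosome 14, 99298691 to 99315036, plus strand), a paralog known for expression in the basal layer, had 34.7, 37.5 and 32.4 TPM, a mean of 34.8 ± 2.58 (SD, n = 3). It lay below Klf4 in 3 of 3 libraries, by 4.58 to 5.77 on the log2(TPM + 1) scale, a mean difference of -5.00 ± 0.67. Klf4 thus had 56.1, 25.7 and 24.6 times the TPM of Klf5 in replicates 1, 2 and 3. The exact two-sided sign-flip permutation test gave p = 0.25 (Benjamini-Hochberg adjusted 0.375 over 3 paralog pairs), and 0.25 is the smallest p that 3 libraries allow. Of the 17 Klf genes, 13 reached a mean of 1 TPM. Klf6 followed Klf4 with 178 ± 33.2 TPM, then Klf16 with 80.4 ± 20.7, Klf9 with 73.4 ± 13.6, Klf10 with 70.4 ± 7.26 and Klf2 with 56.9 ± 7.31 TPM. Klf13, Klf11, Klf15 and Klf3 had 46.6 ± 7.97, 42.6 ± 4.37, 37.3 ± 18.2 and 26.3 ± 3.48 TPM. Klf7 and Klf8 were low, with 2.86 ± 0.428 and 1.15 ± 0.439 TPM, and Klf17 had 0 counts in every library.

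The grainyhead-like factors Grhl1 and Grhl3 are known for barrier and junction genes. Grhl1 (chromosome 12, 24572283 to 24617391, plus strand) had 37.1, 26.9 and 35.4 TPM, a mean of 33.2 ± 5.45 (SD, n = 3). Grhl3 (chromosome 4, 135541888 to 135573630, minus strand), known for its part in barrier formation and wound closure, had 10.1, 8.80 and 18.7 TPM, a mean of 12.5 ± 5.37. It was high in replicate 3 and alike in the other libraries. Grhl3 lay below Grhl1 in 3 of 3 libraries, by 1.39 ± 0.46 on the log2(TPM + 1) scale (exact sign-flip permutation p = 0.25, adjusted 0.375). The difference was 1.78, 1.51 and 0.89 in replicates 1, 2 and 3. The third paralog, Grhl2, was the highest of the family with 77.3 ± 13.8 TPM.

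Ovol1 (chromosome 19, 5549136 to 5560646, minus strand), a zinc finger repressor of proliferation in cells leaving the basal layer, had 12.8, 12.0 and 16.2 TPM, a mean of 13.7 ± 2.24 (SD, n = 3). Its paralog Ovol2 had 23.2, 17.9 and 10.5 TPM, a mean of 17.2 ± 6.38. Ovol2 was above Ovol1 in replicates 1 and 2 and below it in replicate 3. Ovol3 had 1, 5 and 0 counts. Genes of the mesenchymal programme, which Ovol and Grhl proteins are known to repress, were mostly absent or near the floor. Of 7 such genes only Snai2, with 73.0 ± 32.4 TPM, and Vim, with 3.31 ± 0.330 TPM, reached a mean of 1 TPM. Twist1 had 3, 6 and 1 counts, Zeb1 had 10, 3 and 0, and Zeb2 was the lowest with 4, 0 and 9.

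Zfp750 (chromosome 11, 121510978 to 121519333, minus strand), a zinc finger factor downstream of p63, had 12.6, 12.5 and 19.4 TPM, a mean of 14.8 ± 3.92 (SD, n = 3). Replicate 3 was high and the others were alike. The gene lies within Tbcd on the opposite strand, which had 960, 1777 and 1992 counts, and the strand setting of the counting is not given in the sources used here. Chromatin partners known for Zfp750 were all detected. Ctbp1 had 98.0 ± 1.77 TPM, Rcor1 35.4 ± 8.98, Kdm1a 35.0 ± 10.9 and Ctbp2 10.9 ± 4.65 TPM.

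Cebpa and Cebpb encode C/EBP factors that are known to act together in the exit of keratinocytes from the cycle. Cebpa (chromosome 7, 35119293 to 35121928, plus strand) had 44.9, 82.0 and 78.6 TPM, a mean of 68.5 ± 20.5 (SD, n = 3). Replicate 1 was low. Cebpb (chromosome 2, 167688915 to 167690418, plus strand) had 56.4, 64.6 and 35.3 TPM, a mean of 52.1 ± 15.1, and replicate 3 was low. Their order changed between libraries: Cebpb was above Cebpa in replicate 1 and below it in replicates 2 and 3, with a mean difference of -0.38 ± 0.73 on the log2(TPM + 1) scale (exact sign-flip permutation p = 0.5, adjusted 0.5). Without replicate 3 the difference was -0.01. As counts per library total without the division by length, it was -1.17 and Cebpb lay below Cebpa in 3 of 3 libraries, the deposited lengths of the genes being unequal. Cebpb overlaps Tmem189 on the opposite strand, which had 472, 512 and 621 counts, against 914, 1330 and 818 for Cebpb. Of the paralogs, Cebpd had 51.3 ± 18.3 TPM and Cebpg 25.3 ± 8.59 TPM, and Cebpe had 0 counts in every library.

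Gata3 (chromosome 2, 9857078 to 9890034, minus strand) had 59.1, 50.5 and 45.8 TPM, a mean of 51.8 ± 6.74 (SD, n = 3). Gata3 is also a factor of T cells and innate lymphoid cells. The lymphoid markers given above had at most 1.14 TPM in sum in any library, and Cd3e had 0, 20 and 0 counts. The only other GATA gene with a mean of at least 1 TPM was Gata6, with 9.61 ± 2.83 TPM. Gata4 and Gata5 had 0 counts in every library, Gata1 had 4, 0 and 0 counts and Gata2 had 2, 0 and 1.

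By mean TPM the order was Klf4, Trp63, Cebpa, Cebpb, Gata3, Klf5, Grhl1, Zfp750, Ovol1, Grhl3. The ranges over libraries did not overlap between Klf4 and Trp63, Trp63 and Cebpa, Gata3 and Klf5, or Grhl1 and Zfp750. At these 4 steps the first gene was above the second in 3 of 3 libraries, by 2.06 ± 0.75, 2.03 ± 0.42, 0.55 ± 0.18 and 1.12 ± 0.33 on the log2(TPM + 1) scale (mean ± SD, n = 3). At the other 5 steps the ranges overlapped and at least 1 library reversed the order. Cebpb and Gata3 differed by -0.03 ± 0.36 on that scale although Cebpb had the higher mean TPM. Zfp750 and Ovol1 differed by 0.09 ± 0.13, and Ovol1 and Grhl3 by 0.18 ± 0.32.

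The replicate in which a factor was highest was set beside that of differentiation products. Trp63, Grhl3, Ovol1 and Zfp750 were highest in replicate 3, which was so for 4 of 10 members and 20.4% of genes with a mean of at least 1 TPM. Against replicate 2 alone, replicate 3 was higher for 5 of 10 members and 46.3% of those genes, so the members lay near the background. Klf4, Gata3 and Grhl1 peaked in replicate 1, as did 59.6% of those genes. Cebpa, Cebpb and Klf5 peaked in replicate 2, as did 20%. Of the 20 spinous and granular genes, 15 were highest in replicate 3. Krt10, a keratin of the spinous layer and the highest of the list, had 1181, 1588 and 2910 TPM, and Tgm1, which crosslinks the cornified envelope and is a known Grhl3 target, had 7.65, 10.3 and 23.9 TPM. Their summed level was 5917, 7408 and 9980 TPM in replicates 1, 2 and 3. Of the 12 barrier lipid genes, 10 were highest in replicate 3, with summed levels of 485, 471 and 636 TPM. The 15 basal genes did not share this, since 4 were highest in replicate 3 and 9 in replicate 2. The part of upper-layer cells in the levels of Grhl3, Ovol1 and Zfp750 was not tested.

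**Figure D2:**
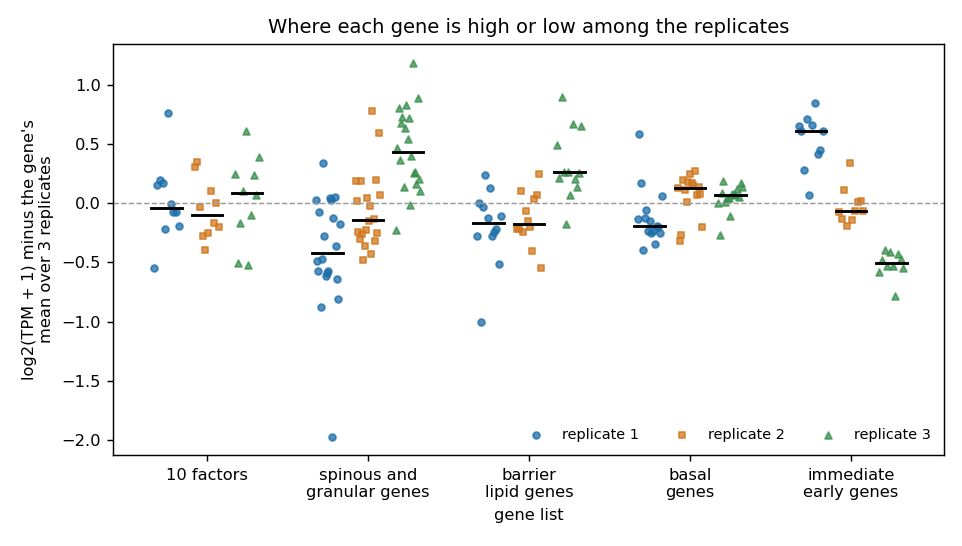
Each gene's log2(TPM + 1) in a replicate minus its mean over the 3 replicates, for the 10 factors and 4 gene lists; points are genes and bars are medians. Spinous and granular genes sit high in replicate 3 (15 of 20 highest there), and immediate early genes sit high in replicate 1 (9 of 10 highest there, beside 59.6% of genes with a mean of at least 1 TPM).

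The high Klf4 value of replicate 1 stood beside immediate early genes, a list of 10 genes induced quickly by stimulation and by cell isolation, added with these values known. Of these, 9 were highest in replicate 1, beside 59.6% of genes with a mean of at least 1 TPM. Fos, an AP-1 subunit, had 10120, 5406 and 4269 TPM. The summed level of the list was 26449, 17207 and 12275 TPM in replicates 1, 2 and 3, and its part in the Klf4 values was not tested. Klf4, Fos and Jun were thus all highest in replicate 1 and lowest in replicate 3.

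Other regulators of epidermal differentiation were also present. Of 15 in a list of such genes, 14 reached a mean of 1 TPM, with a list median of 30.1 ± 7.06 TPM. Sfn, which encodes the cell cycle inhibitor 14-3-3 sigma, had 1209 ± 279 TPM, Hopx 336 ± 52.2 TPM and Vdr, the vitamin D receptor, 291 ± 19.9 TPM. The lowest was Satb1, a chromatin organizer known as a p63 target, with 0.867 ± 0.206 TPM. Differentiation products were detected too: all 20 spinous and granular genes reached a mean of 1 TPM, led by Krt10 with 1893 ± 904, Calml3 with 1426 ± 204 and Krtdap with 1255 ± 352 TPM. The basal list was led by the keratin genes Krt15, Krt5 and Krt14, with 23208, 17900 and 6136 TPM on average, and its lowest gene was Fras1 with 1.21 ± 0.342 TPM. The median of the spinous and granular genes was 60.0 ± 25.9 TPM, beside 241 ± 12.7 TPM for the 15 basal genes and 33.4 ± 9.87 TPM for the 12 barrier lipid genes. The lowest of the 20 was Tgm3 with 1.53 ± 1.11 TPM. Barrier lipid genes were led by Cldn1 with 161 ± 19.4 TPM, Alox12e with 96.8 ± 17.4 TPM and Smpd1 with 57.4 ± 16.1 TPM, and the lowest was Aloxe3 with 4.90 ± 0.898 TPM. Of the 10 sebaceous markers, 8 reached a mean of 1 TPM, and their summed level of 221, 256 and 317 TPM was highest in replicate 3.

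The table gives 1 number per gene for H3K27me3, whose unit, source cells and caller are not given in the sources used here. The authors' deposited table gave 24043 for Gata3 and 12526 for Grhl3, and 0 for the other 8 members. Values over 0 were held by 8.06% of all genes and by 3.29% of the 13663 genes with a mean of at least 1 TPM. Among values above 0 that of Gata3 lay at the percentile of 82.4 and that of Grhl3 at 67.2. The value of 24043 was shared by 9230102O04Rik, which lies inside Gata3, and by Gm13262, within 100 kb of it, while the other genes overlapping Gata3 had 0. None of the 6 other genes within 100 kb of Grhl3 had a value above 0.

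Within the families the H3K27me3 values went with both high and absent expression. The authors' deposited table listed 5 of the 6 GATA genes over 0: 51721 for Gata4 and 6105 for Gata5, both without counts, 26217 for Gata2, and 20585 for Gata6, besides Gata3. Gata3 was thus expressed at 51.8 TPM with a value close to that of Gata2, which had 3 counts over the libraries. In the Klf family the value was above 0 for Klf14 (40662, with 2, 0 and 1 counts) and Klf8 (5967). Trp73 had a value of 8601 in the authors' deposited table, and Trp63 and Trp53 had 0. None of the Cebp and Ovol genes had a value above 0, and in the Grhl family Grhl3 alone did. Of the 7 mesenchymal genes 6 had one, all but Snai2, the most abundant of them.

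**Figure D3:**
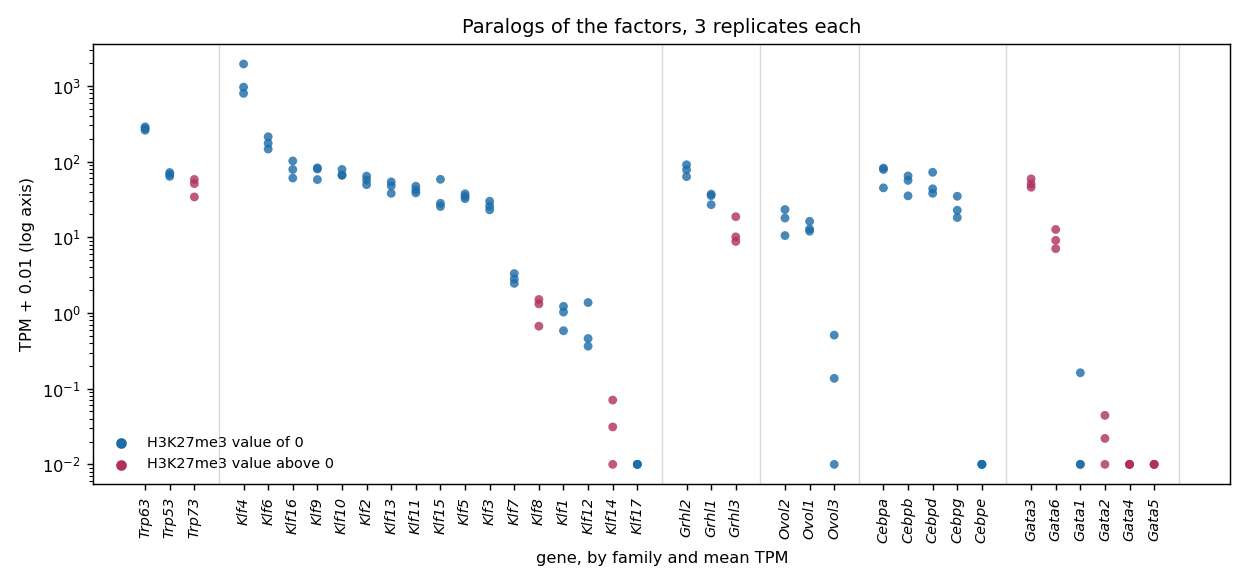
TPM plus 0.01 (log axis) of every gene of the p53, Klf, Grhl, Ovol, Cebp and Gata families, with 1 point per replicate; colour shows whether the table's H3K27me3 value is above 0. Gata3 lies near 50 TPM with a value above 0, and Gata4 and Gata5, also above 0, have no counts.

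The authors' deposited table also compares these cells with others. From the names of columns not used here, the fold change was taken to be against bulge libraries, and a positive value means higher in the libraries studied here. Its direction was read from 2555 genes without counts in these libraries, of which 2555 had a negative fold change. Among 20274 genes with an adjusted p-value, 55.5% were called at 0.05, 23.6% as higher and 32% as lower. Of the 10 factors, 7 were called, 5 as higher and 2 as lower. Among the 13505 tested genes with a mean of at least 1 TPM, which all 10 factors reach, 60.8% were called, 35.1% as higher and 25.6% as lower. At an adjusted p of 0.01, 6 members were called beside 46.1% of all tested genes, and 5 members beside 46.3% where a log2 fold change of at least 1 in size was also asked. The share of members called lies near this background and is no result about them as a set. The median log2 fold change of the members was 0.57, beside 0.26 over genes with a mean of at least 1 TPM and -0.41 over all genes with a value.

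Cebpb had the highest fold change of the members in the authors' deposited table, a log2 value of 5.24 (adjusted p = 1.82e-24), at the percentile of 99.6 among genes with a mean of at least 1 TPM. Cebpa followed with 2.96 (adjusted p = 9.12e-15) and Ovol1 with 2.56 (adjusted p = 2.17e-09) in the authors' deposited table. Klf4 had 0.85 (adjusted p = 0.00246), a sign that did not hold against genes of its GC content, and Grhl1 had 0.65 (adjusted p = 0.0149) there. Trp63 was lower, with a log2 fold change of -1.47 (adjusted p = 1.68e-12), and so was Klf5 with -1.05 (adjusted p = 0.000118), both in the authors' deposited table. Grhl3 (0.49, adjusted p = 0.315), Zfp750 (0.48, adjusted p = 0.314) and Gata3 (0.13, adjusted p = 0.595) were not called in the authors' deposited table. Tmem189, which overlaps Cebpb on the opposite strand, was higher there too, at 2.05 (adjusted p = 5.48e-08). Its part in the Cebpb value was not tested.

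Paralogs did not all move with the members in the authors' deposited table. Ovol2 was higher with Ovol1, at 1.94. Cebpd was higher, at 0.78, and Cebpg lower, at -0.90. Grhl2 was lower, at -0.45, while Grhl1 was higher. Trp73 was higher, at 0.91, although at -0.33 relative to the median of its GC decile, and Trp53 lower, at -0.67. Of 15 tested Klf genes, 6 were called higher and 4 lower, with Klf16 at 3.65, Klf2 at 2.21 and Klf15 at 1.67 the highest and Klf7 at -2.00, Klf3 at -1.52 and Klf6 at -1.25 the lowest. Gata6 was higher at 1.21. Relative to the medians of their GC deciles, Ovol2 was at 0.70, Cebpd at 0.10, Cebpg at -0.25 and Gata6 at 0.22. Klf16, Klf2 and Klf15 were at 2.02, 0.59 and 0.68 on that measure, and Klf7, Klf3 and Klf6 at -1.58, -1.09 and -0.59. Grhl2 and Trp53 were lower still on it, at -0.83 and -1.35.

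The differentiation lists were read in the same comparison. Calls are read beside the 35.1% higher and 25.6% lower among tested genes with a mean of at least 1 TPM, and medians beside the 0.26 of such genes. Of 20 spinous and granular genes, 13 were called higher and 1 lower in the authors' deposited table, with a median log2 fold change of 1.88. Lor, a major protein of the cornified envelope, had 5.78, Krt10 3.29 and Krtdap 3.24, and Tgm5 was the one lower, at -0.49. Of 12 barrier lipid genes, 6 were called higher and none lower, with a median of 0.79 and with Alox12e at 2.92, Slc27a4 at 2.32 and Alox12b at 1.75. Of the 15 basal genes, 11 were called higher and 2 lower, with a median of 0.63 and with Krt14 at 2.36, Lamb3 at 2.09 and Jag2 at 1.73 against Dst at -1.46 and Lama3 at -0.71, which turned to 0.42 relative to genes of its length. The 15 other regulators had a median of -0.01, and 4 were called higher, among them Sfn at 3.13, Elf3 at 2.15 and Hopx at 1.97, and 3 lower, Satb1 at -1.36, Dlx5 at -0.91 and Tfap2a at -0.76. Of the Zfp750 partners, Ctbp1 was higher at 2.50, Rcor1 lower at -0.66 and Kdm1a lower at -0.52. Of the 4 mesenchymal genes tested, Vim was higher at 1.04, and Snai2 and Zeb2 were lower at -1.21 and -3.34. Of the 9 sebaceous markers tested, 4 were called higher and none lower. Of the 10 immediate early genes, 8 were called higher and 1, Dusp1, lower, with a median of 1.92.

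The fold change moved with base composition and length of the transcripts. Across 13641 genes with a mean of at least 1 TPM, Spearman's rho between the authors' log2 fold change and the GC content of the longest GENCODE transcript was 0.53, and with the deposited gene length it was -0.38. These are across genes, which are not independent replicates and share the libraries. The median log2 fold change rose from -0.98 in the lowest decile of GC content to 1.63 in the highest. Cebpb, at 67.2% GC, and Cebpa, at 62.6%, lie in the highest decile, and Trp63, at 44.2%, lies in the third. Relative to the median of their own GC decile, the authors' log2 fold changes were 3.61 for Cebpb, 1.57 for Ovol1, 1.33 for Cebpa, 0.55 for Grhl1, -1.05 for Trp63 and -1.14 for Klf5. Klf4 was at -0.13 on that measure and so turned in sign, as did Grhl3, at -0.20. Relative to genes of its length decile, Grhl1 was at 0.02 and Klf4 at 0.23. On that measure Grhl3, at -0.39, Gata3, at -0.25, and Zfp750, at -0.15, turned in sign. The part of GC content and length in these fold changes was not tested.

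**Figure D4:**
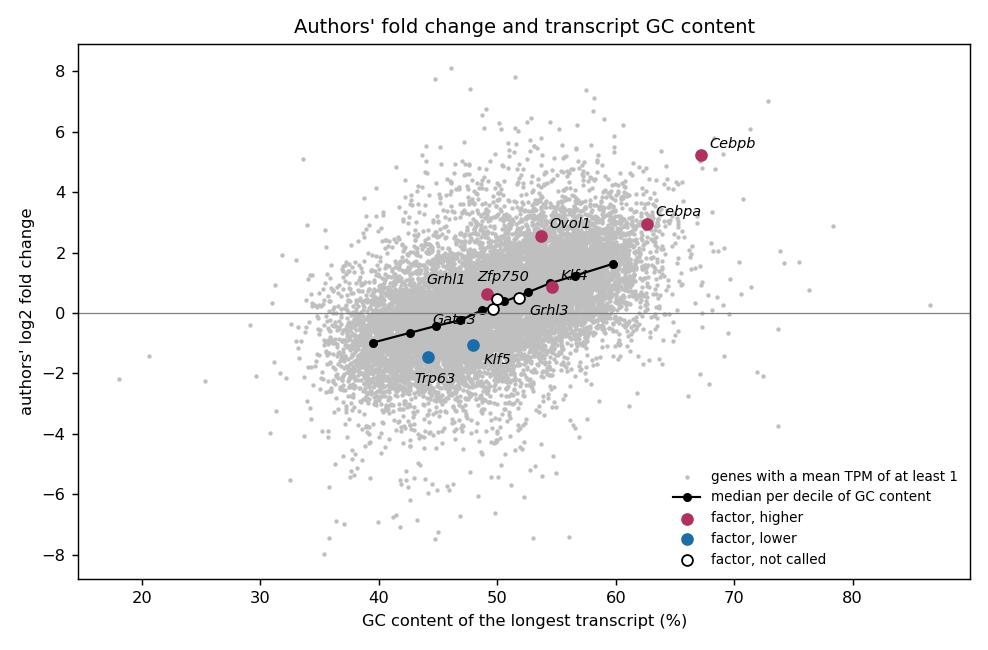
The authors' log2 fold change against the GC content of the longest transcript (%), for genes with a mean of at least 1 TPM (grey), with medians per GC decile (black line) and the 10 factors coloured by their call in the authors' table. Cebpb, Cebpa and Ovol1 lie above the line, Trp63 and Klf5 below it, and Klf4 close to it.

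The authors' score multiplies the H3K27me3 value plus 1 by the log2 fold change and by -log10 of the adjusted p-value. Grhl3 had the highest score of the members in the authors' deposited table, 3059, at rank 314 of 20264 genes with 1 entry per symbol. Gata3 followed with 707 at rank 439, and Cebpb with 124 at rank 615. Neither Grhl3 nor Gata3 was called in the comparison, so their ranks rested on the H3K27me3 value. Trp63 had a score of -17.3 in the authors' deposited table, at rank 17133.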

How the data were processed

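RNA of 3 sorted samples of 1 group was measured, and no group contrast was fitted. Per the file headers the authors deposited read counts per gene, TPM values, a log2 fold change with its adjusted p-value, an H3K27me3 number and a score. Per the submitters' processing notes, FastQC, TopHat2, SAMtools, DESeq, DESeq2 and the builds mm10 and GRCm38 were named, with no roles. The counting tool and strand setting are not given in the sources used here, and strand-blind counting would mix overlapping genes. Another 6 columns of per-sample values match no sample of the series and were not used.

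For symbols with several entries the one with the highest mean TPM was kept. Coordinates, gene types and transcript GC content came from GENCODE M21 by identifier (44392 of 44625 entries matched), and promoter windows from RefSeq. Levels were averaged as TPM, and differences taken as log2(TPM + 1), which understates changes of low genes. The TMM factors and dispersions came from edgeR 4.0.16 (R 4.3.3) on the counts, with the filterByExpr filter, after tests on simulated data. Other work used Python 3.11.15. Paralog pairs were compared within libraries by exact sign-flip tests.

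Named genes were all members, each family's paralogs with a mean of at least 1 TPM or with 0 counts in all libraries, and of each other list the 3 highest, the lowest and up to 3 with the largest called fold changes in each direction. The marker lists of other cell types are given by their sums, and genes named outside this rule (Fos, Jun, Dusp1, Tgm1, Zeb1, Cd3d, Cd3e, Lyz2, Cd68, Cd74, neighbouring genes and low paralogs) were chosen with values seen. The members and lists were chosen with earlier results of these data known. Alternatives were scaling, pseudocount, thresholds, background genes and leaving out each replicate.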

Additional observations from a re-analysis of the deposited data

How the results depend on the processing

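Mean TPM of each member, and the median over the 10, moved by less than 1 SD under TMM factors and upper quartile factors. Leaving out 1 of the 3 replicates cannot move a mean by 1 SD, so that measure says nothing about stability there. Without replicate 1 the mean of Klf4 went from 1235 to 880 TPM and that of Cebpa from 68.5 to 80.3 TPM. All 10 stayed detected with a limit of 5 TPM. The percentile of the members' median was 92.8 among all genes and 73.7 among protein-coding genes with a mean of at least 1 TPM. The number of members lying apart in a replicate was 4 with a 1.5-fold limit (Klf4, Grhl3, Cebpa and Cebpb, where 34.0% of genes did so), 2 with upper quartile factors and 0 with TMM factors. The paralog differences kept their sign under each pseudocount, scaling and omission, with Klf5 minus Klf4 from -5.21 to -4.61, Grhl3 minus Grhl1 from -1.64 to -1.20, and Cebpb minus Cebpa from -0.74 to -0.01 when 1 replicate was left out. Without length scaling the last was -1.17. Members called by the authors numbered 6 at 0.01 and 5 with a log2 fold change of at least 1 in size. Centrings chosen after seeing the data left 8 (all genes), 7 (genes with a mean of at least 1 TPM), 6 (GC decile) and 5 (length decile) members above 0, against 8 as deposited. As a mean of log2 values the basal list stood at 474 TPM. Of 20 spinous and granular genes, 15 to 16 were highest in replicate 3 by scaling. Replicate 3 was above replicate 2 for 17 of these 20, for 5 of 10 members and for 46.3% of genes with a mean of at least 1 TPM. No paired analysis was possible because there is only 1 group, and only genes were compared within libraries. Depth limits mainly Grhl3, Ovol1, Zfp750 and Klf5, with 304 to 966 counts.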
